A study of Mus musculus with 2 samples.

Results

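Bmp4, Bmp6, Bmp7, Msx1, Msx2, Id1, Id2, Id3 and Id4 were followed across the cell classes of the early mouse telencephalon. These 9 genes were taken by symbol from the gene lists of 2 droplet single-cell libraries, in which they are 9 of 32286 and 9 of 28001 listed features. The series belongs to a study of protocadherin 8 and the transcription factor Dbx1 in the embryonic cortex. One library was made from whole telencephalic vesicles of 3 wild-type embryos from 2 litters, labelled E12 (embryonic day) and aged E11.5 to E12 by the study's methods. The other was made from explants that held the septum, pooled from 12 embryos of 2 stages. Of these, 8 were E11.5 embryos with the alleles PGKCre and Rosa26YFP, in which a ubiquitous promoter drives Cre and so turns on the yellow fluorescent protein (YFP) reporter throughout the embryo, and 4 were E12.5 embryos with Dbx1Cre and Rosa26tdTomato, in which cells of the Dbx1 lineage carry the tdTomato reporter. Both libraries are labelled as C57BL/6J and as wild type in genotype. Each is a single pool, so that there are no replicates and no test between conditions, and levels were not compared from one library to the other. Every interval given is a 95% interval for counting error alone.

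Bone morphogenetic proteins (BMPs) are secreted ligands that bind pairs of type I and type II receptor kinases, which phosphorylate Smad1, Smad5 and Smad9. These enter the nucleus with Smad4 and bind GC-rich and GTCT-type elements, and the Id and Msx genes are among their best known direct targets. In the dorsal midline of the telencephalon, the cortical hem and the choroid plexus make BMPs next to Wnt ligands, while the septum at the rostral midline makes Fgf ligands. Msx1 and Msx2 encode homeodomain repressors of dorsal midline tissue. Id proteins have a helix-loop-helix but no basic region, and hold E proteins (Tcf3, Tcf4, Tcf12) away from the proneural factors that start neurogenesis.

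The 9 genes lie apart in the genome, as annotated by GENCODE on GRCm38, the build also called mm10. Bmp4 is on the minus strand of chr14 (chr14:46383520-46390669), Bmp6 on the plus strand of chr13 (chr13:38345107-38500302) and Bmp7 on the minus strand of chr2 (chr2:172868012-172940321). Msx1 (chr5:37820485-37824583) and Msx2 (chr13:53466884-53473074) are both on the minus strand. Id1 (chr2:152736251-152737410), Id3 (chr4:136143497-136145755) and Id4 (chr13:48261228-48266026) are on the plus strand and Id2 (chr12:25093799-25097140) on the minus strand. The Bmp6 gene spans 155.2 kb, of which 2.51% is exon, whereas Id1 was annotated as exon over 100% of its length in the merged gene models. Bmp4, Bmp6 and Id4 overlap other annotated genes (Gm15217 and Gm15222 for Bmp4, Txndc5 and 4930579J19Rik for Bmp6, A330033J07Rik and Gm49291 for Id4).

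Promoter sequence, 250 bases upstream of the RefSeq start on GRCm38.p6, was read for 7 of the 9 members and is shown for the 3 whose window holds no annotated exon. Bmp4 and Msx1 stand for members high in hem-like cells, and Id4 for the member that was low there. Capitals mark the palindrome GGCGCC, the classical GC-rich Smad element. All sequences are in the direction of transcription, from chr14:46390670-46390919 for Bmp4, chr5:37824586-37824835 for Msx1 and chr13:48260866-48261115 for Id4.
Bmp4: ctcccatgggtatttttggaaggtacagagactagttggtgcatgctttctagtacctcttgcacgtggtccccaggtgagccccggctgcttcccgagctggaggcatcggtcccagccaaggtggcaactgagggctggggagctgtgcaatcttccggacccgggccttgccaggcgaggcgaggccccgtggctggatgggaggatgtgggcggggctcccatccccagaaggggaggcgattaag
Msx1: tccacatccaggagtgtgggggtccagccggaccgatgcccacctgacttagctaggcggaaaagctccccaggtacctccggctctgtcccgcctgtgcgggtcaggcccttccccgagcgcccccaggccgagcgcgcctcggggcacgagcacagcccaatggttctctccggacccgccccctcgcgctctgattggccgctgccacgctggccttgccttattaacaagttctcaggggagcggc
Id4: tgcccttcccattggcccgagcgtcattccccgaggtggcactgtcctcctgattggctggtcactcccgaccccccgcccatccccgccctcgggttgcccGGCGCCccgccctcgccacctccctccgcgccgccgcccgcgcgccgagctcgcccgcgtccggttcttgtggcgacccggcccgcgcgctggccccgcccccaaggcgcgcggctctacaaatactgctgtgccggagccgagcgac
The Bmp4 and Msx1 windows hold neither GGCGCC nor GTCTG (searched also as CAGAC, its reverse complement), and the Id4 window holds 1 GGCGCC, 148 bases before the start. Among the windows not printed, Id2 holds 1 GGCGCC at 231 bases, Id3 holds 2 copies of GTCTG or CAGAC at 167 and 68 bases, Bmp6 holds 1 at 119 bases and Msx2 holds neither. Of all 32851 promoter windows of this length, 9.59% hold GGCGCC and 42.2% hold GTCTG or CAGAC. Such letters are common, and neither a match nor its lack describes binding. The GC content was 63.2% for Bmp4, 68% for Msx1 and 75.6% for Id4, against a median of 52.4% over all windows.

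After filtering, 11758 cells of the vesicle library with a median of 9058.5 UMIs (unique molecular identifiers, each a captured transcript molecule) and 5384 cells of the explants with a median of 12868.5 were kept, and the libraries shared 1 barcode. Cells were sorted into classes by marker lists that hold none of the 9 genes. Apical progenitors (APs) were split into hem-like, septal-like, pallial-like, ventral pallium (VP)-like, and lateral and medial ganglionic eminence (LGE, MGE)-like classes, the last 2 also summed as subpallial-like. The hem-like class held 631 vesicle cells and 135 explant cells, the septal-like class 703 and 685, and the pallial-like class 1064 and 786. The largest class of each library was that of APs whose scores reached no region. It held 2658 vesicle and 1202 explant cells, 22.6% and 22.3% of those kept, and entered no comparison between regions. Markers on the hem list were enriched by the way the class was cut, so their shares describe it and are no check of it. Lmx1a was in 76.2% of vesicle hem-like cells against 5.32% of other cells, and Wnt3a in 53.1% against 1.61%. For the explants these shares were 30.4% against 0.914% and 61.5% against 1.01%. Wnt2b, also on the hem list, was detected in 3.01% and 0.741% of hem-like cells, so it did not define them. Septal-like cells carried Fgf17 in 81.5% of vesicle and 98.7% of explant cells. The classes are cut from a score. Of the hem-like cells, 519 of 631 and 98 of 135 also passed a stricter gate, and of the septal-like cells 604 of 703 and 582 of 685. The explant hem-like cells were the less pure, with a median of 34 UMIs from the hem list beside 10 from the septal and 11 from the pallial list, against 52, 4 and 8 in the vesicle. Median UMIs per cell were 11794 in vesicle hem-like and 14285.5 in pallial-like cells, and 13889 and 16675 in the explants. Levels are given as CPM, the counts of a gene scaled to a class total of 1000000 UMIs.

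Among the ligands, Bmp4 was highest in the midline classes of the vesicle. It stood at 234 CPM in choroid plexus-like cells (89 cells), 140 in hem-like APs, 53.9 in mesenchyme-like cells and 22.6 in septal-like APs. Pallial-like APs had 6.65 CPM, VP-like APs had 11 UMIs in 546 cells, and LGE-like and MGE-like APs 0.370 and 0.470. The level was thus lower in steps from the dorsal midline classes to the LGE-like and MGE-like APs. Of the 18 pairs of neighbouring classes in the full order, however, 15 had overlapping intervals. In the explants the same 4 classes were highest but in another order, with 82.7 CPM in choroid plexus-like cells (13 cells), 58.8 in mesenchyme-like cells (34 cells), 36.5 in hem-like APs and 13.5 in septal-like APs, and 0.281 in pallial-like APs.

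Bmp6 was largely a gene of hem-like (260 CPM) and choroid plexus-like cells (283 CPM) in the vesicle, whose intervals overlapped. Septal-like APs had 27.2 and pallial-like APs 16.0 CPM, and mesenchyme-like cells 3.92. In the explants, Bmp6 had 3 UMIs in all 5384 cells, 2 of them in hem-like cells, whereas the vesicle held 5594. The explant reads were aligned with a far older version of Cell Ranger and another kit, and the share of UMIs from introns is not given in the sources used here. The part of tissue, kit and processing in this gap cannot be told apart, and Bmp6 is given for the vesicle only in what follows.

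Bmp7 was found at 136 CPM in choroid plexus-like and 84.9 CPM in hem-like cells of the vesicle, then at 21.6 in mesenchyme-like, 17.2 in pallial-like and 17.1 in septal-like cells. Of the ligands it was the one detected most widely in the explants, with 331 CPM in choroid plexus-like cells, 125 in mesenchyme-like cells, 104 in hem-like, 36.5 in septal-like and 29.3 in pallial-like APs. Neurons also carried it. Explant neurons with Slc17a6 but no Tbr1 UMI (56 cells) were the highest of the neuronal classes, at 57.6 CPM (interval 40.1 to 80.1), from 35 UMIs in 30.4% of cells. Cajal-Retzius-like cells there had 17.7 CPM and pallial glutamatergic-like neurons 10.5. In the vesicle the 102 neurons with Slc17a6 but no Tbr1 UMI had 6.96 CPM, beside 9.02 in Cajal-Retzius-like cells.

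Msx1 was a gene of mesenchyme-like and choroid plexus-like cells first, at 246 and 220 CPM in the vesicle and 594 and 540 CPM in the explants. Hem-like APs had 45.5 and 65.5 CPM, and septal-like APs 11.7 and 11.3. Msx2 took another order. It was highest in hem-like APs of both libraries (87.6 and 70.2 CPM), above choroid plexus-like cells (48.3 and 16.5) and mesenchyme-like cells (36.5 and 16.1), and its septal-like level was only 1.74 and 0.533 CPM. The intervals of hem-like and choroid plexus-like cells did not overlap for Msx2 in either library.

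Id1 and Id3 shared the midline pattern. Id1 had 527 CPM in choroid plexus-like and 477 CPM in hem-like cells of the vesicle, and between 13.5 and 56.7 in the other AP classes with a region. Id3 was at 1987 CPM in hem-like and 1175 in choroid plexus-like cells, then at 441 in the 28 endothelium-like cells and 355 in mesenchyme-like cells. Id2 was high in hem-like (293 CPM) and choroid plexus-like (244) cells but also in the BP-like class of basal progenitors, which express Eomes, at 228 CPM. Id4 ran the other way. It was highest in VP-like APs (649 CPM), APs without a region (537), and pallial-like (533), MGE-like (465) and LGE-like (447) APs. Its level was low in hem-like (107), choroid plexus-like (44.7) and mesenchyme-like (35.8) cells. In the explants Id2 was highest in BP-like cells (431 CPM), Id3 in hem-like cells (1705 CPM), Id1 in hem-like cells (370 CPM, beside 331 in choroid plexus-like cells with overlapping intervals), and Id4 in pallial-like APs (394 CPM).

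**Figure D1:**
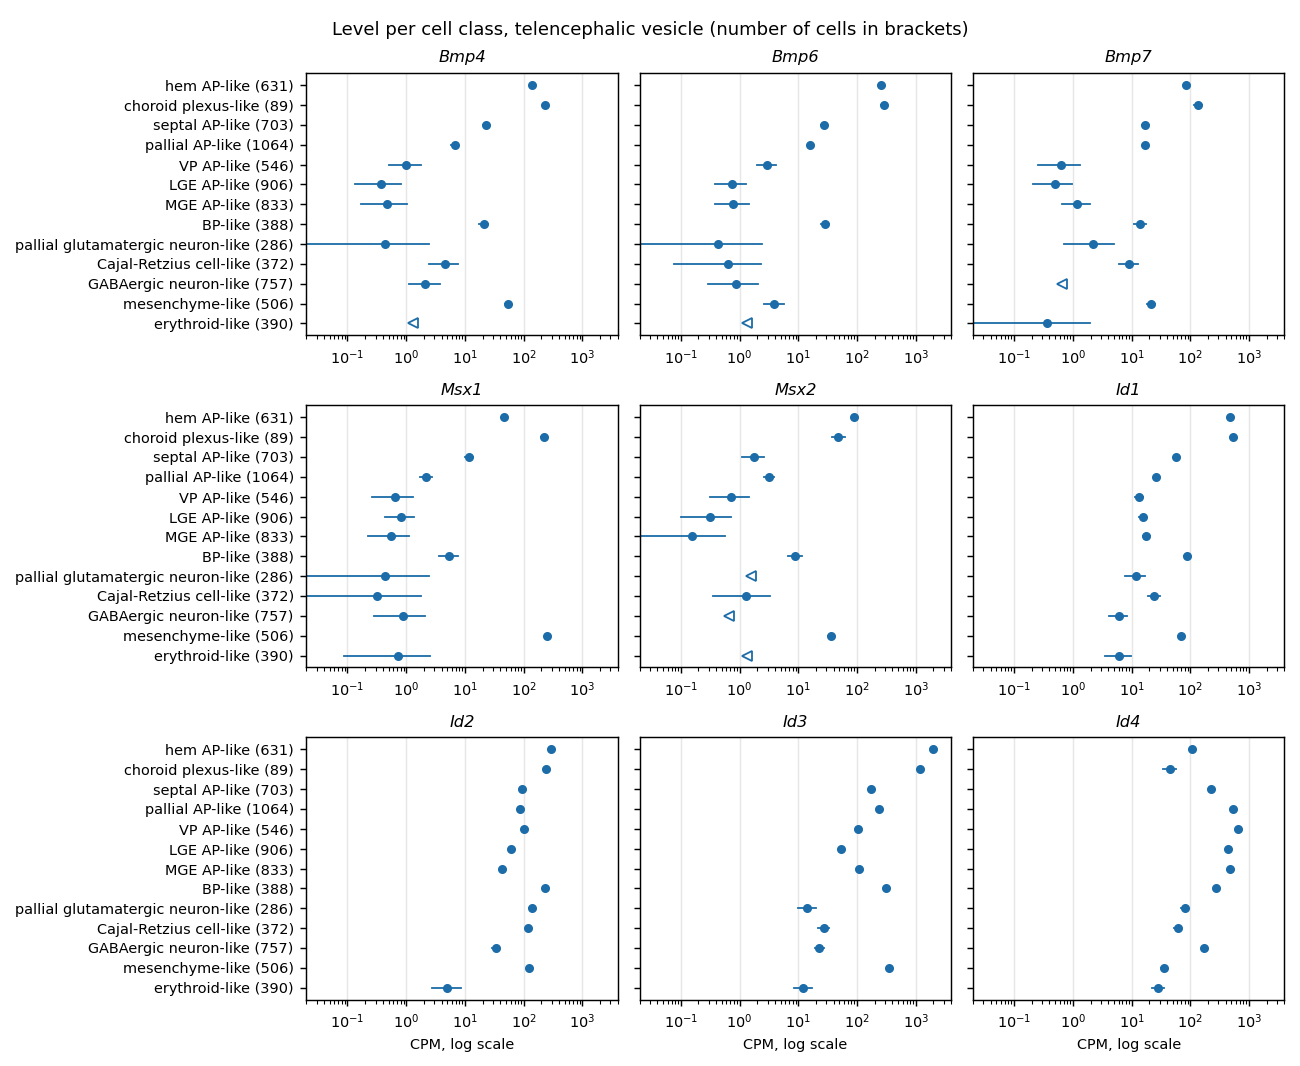
Level of each of the 9 genes (CPM, log axis) in selected classes of the vesicle library, with the number of cells, 1 panel a gene. Bars are 95% counting intervals, and open triangles mark classes with 0 UMIs, drawn at the upper limit of their interval. Hem-like and choroid plexus-like cells stand toward the right for every member but Id4, which is highest in VP-like APs at 649 CPM. For Msx1, mesenchyme-like cells lie furthest right, at 246 CPM.

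**Figure D2:**
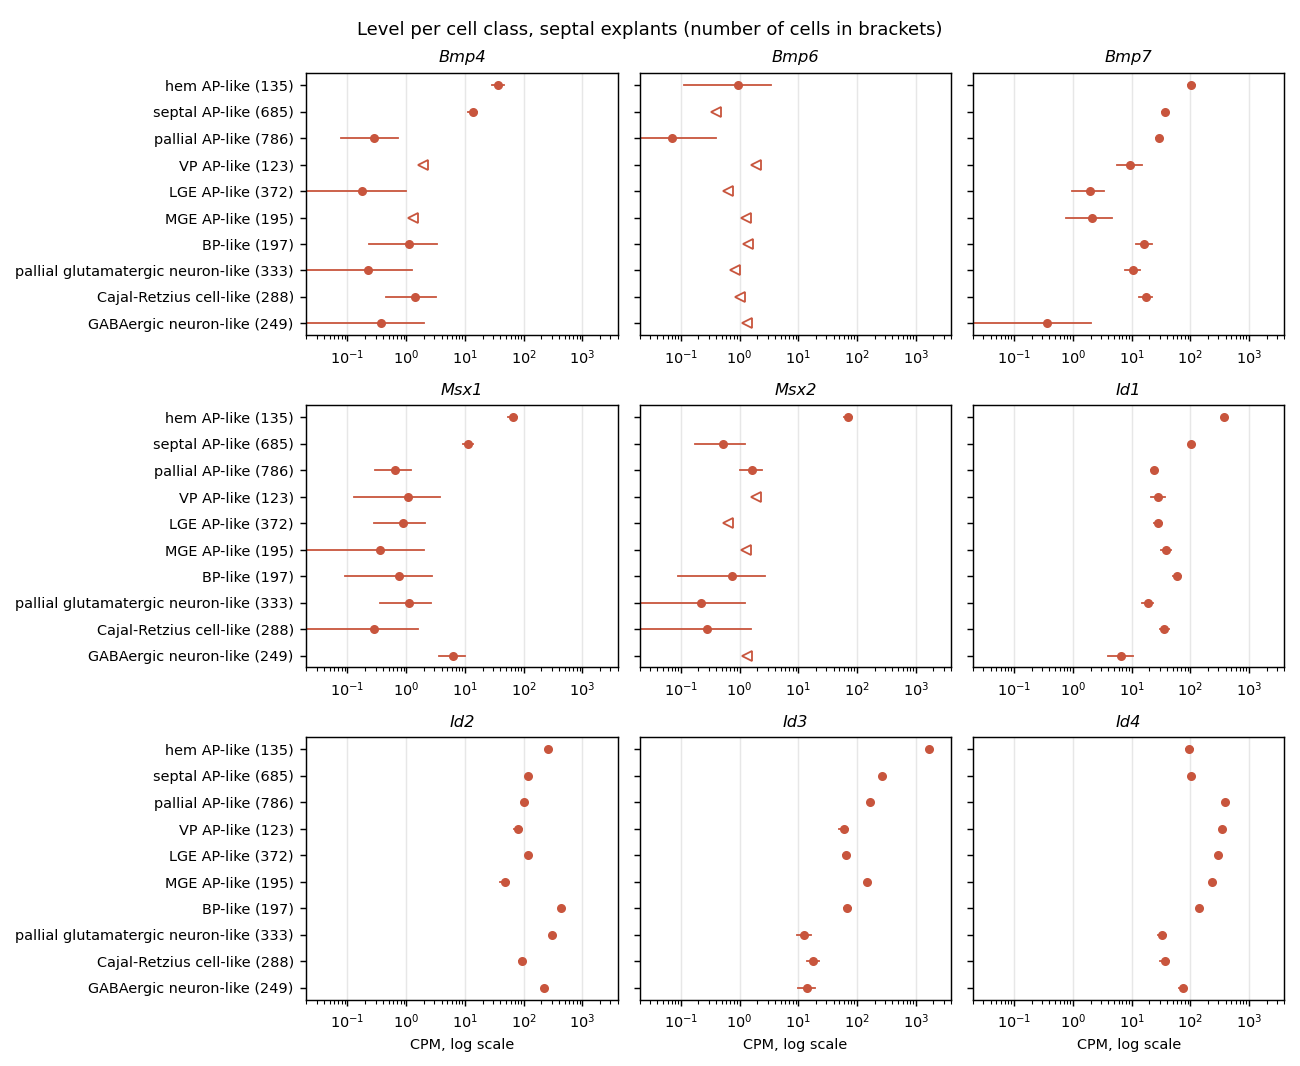
The same plot for the explant library, with CPM on a log axis, 95% counting intervals as bars and open triangles for 0 UMIs. Classes of fewer than 50 cells, among them choroid plexus-like and mesenchyme-like cells, are not drawn. Of the classes drawn, hem-like APs have the most Msx1, at 65.5 CPM, and Bmp6 is at or near 0 UMIs in every class.

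The first comparison set hem-like against pallial-like APs, which asks how far the genes separate the dorsal midline from the neighbouring cortex at this age. A gene was taken up when the classes together held at least 50 of its UMIs, and its difference was counted when it was at least 2-fold. All 9 genes were taken up in the vesicle. Of them, 8 were higher in hem-like cells, where 6.61% of the 13362 genes taken up were, and 1, Id4, was lower, where 3.82% were. In the explants 8 were taken up, of which 7 were higher (4.95% of 10202 genes) and Id4 again lower (2.10%). Of these, Bmp4, Msx1 and Msx2 reached the minimum only through their hem-like UMIs (78, 140 and 150, against 4, 9 and 23). The median log2 ratio was 4.02 over the members in the vesicle and 3.66 in the explants.

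Bmp4 was 21.1-fold higher in vesicle hem-like cells (interval 18.3 to 24.4), from 1802 UMIs against 211. In the explants it had 78 UMIs in hem-like cells and 4 in the more numerous pallial-like cells, a ratio of 130 whose interval runs from 48.8 to 489. Bmp6 was 16.3-fold higher in the vesicle (14.8 to 17.9). Bmp7 gave the smallest ratio of the ligands, 4.94-fold (4.45 to 5.48) and 3.57-fold (3.02 to 4.20). The ligands were thus not equally restricted, since the intervals of Bmp7 lie apart from those of Bmp4 in both libraries.

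Msx1 was 20.9-fold (16.3 to 27.3) and Msx2 27.8-fold (22.6 to 34.5) higher in vesicle hem-like cells. In the explants Msx2 was 43.5-fold higher (27.9 to 70.7) and Msx1 had 140 UMIs against 9. Few cells carried the explant signal. The 10 hem-like cells richest in Msx1 held 64.3% of its UMIs, and the corresponding shares were 42.7% for Msx2 and 42.3% for Bmp4. In the vesicle, no member had more than 22.7% of its hem-like UMIs in 10 cells. However, 10 cells are a smaller part of the 631 vesicle hem-like cells than of the 135 of the explants, so these shares are not alike.

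Id1 was 18.2-fold (16.9 to 19.6) higher in hem-like cells of the vesicle and 15.6-fold (13.7 to 17.7) in those of the explants. Id3 was 8.31-fold (8.10 to 8.53) and 10.2-fold (9.68 to 10.7) higher. Id2 gave 3.41-fold (3.24 to 3.58) and 2.54-fold (2.30 to 2.81), the smallest of the Id genes that were higher. Id4 stood at 107 against 533 CPM in the vesicle, a ratio of 0.202 (0.191 to 0.213), and at 96.3 against 394 CPM in the explants, a ratio of 0.245 (0.212 to 0.281). The direction of all 9 genes held in both libraries wherever a gene was taken up. Every one of these differences stayed at 2-fold or more under each alternative that kept enough UMIs to give a value.

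Counted as cells rather than UMIs, after random thinning to a depth of 3500 UMIs for vesicle and 8000 UMIs for explant cells, Id3 was detected in 94.0% of vesicle and 94.4% of explant hem-like cells, against 36.7% and 36.5% of pallial-like cells. Bmp4 was detected in 41.6% of vesicle hem-like cells (72.4% before thinning) and 2.32% of pallial-like cells, and in 19.2% and 0.133% in the explants. Erythroid-like cells were taken as a measure of the background of free RNA, though whether they express any member themselves was not tested. Bmp4, Bmp6, Bmp7 and Msx2 were in 0 of 350 such thinned vesicle cells (a share of at most 0.857% by 3 cells), Msx1 in 0.286%, Id1 and Id2 in 1.43% each, Id3 in 4.57% and Id4 in 10.0%. After thinning, the pallial-like share of Msx1 (0.870%) and of Msx2 (1.16%) was near that of erythroid-like cells. Those of Id1 (8.22%), Id2 (23.9%) and Id4 (77.6%) were well above it. Erythroid-like cells were shallower, with a median of 5396.5 UMIs against 14285.5, so thinning kept unlike parts of the classes. Their shares are therefore only a rough guide to the background of pallial-like cells. Before thinning, Msx2 had 3.15 CPM (2.56 to 3.83) in pallial-like APs. Erythroid-like cells had 0 UMIs of it, with an upper limit of 1.32 CPM, so these intervals lay apart. Those of Msx1 overlapped, at 2.17 CPM (1.69 to 2.75) against 0.715 (0.0865 to 2.58). The explants had only 26 erythroid-like cells, with Id2 in 26.9% of them, so that background is poorly measured there.

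**Figure D3:**
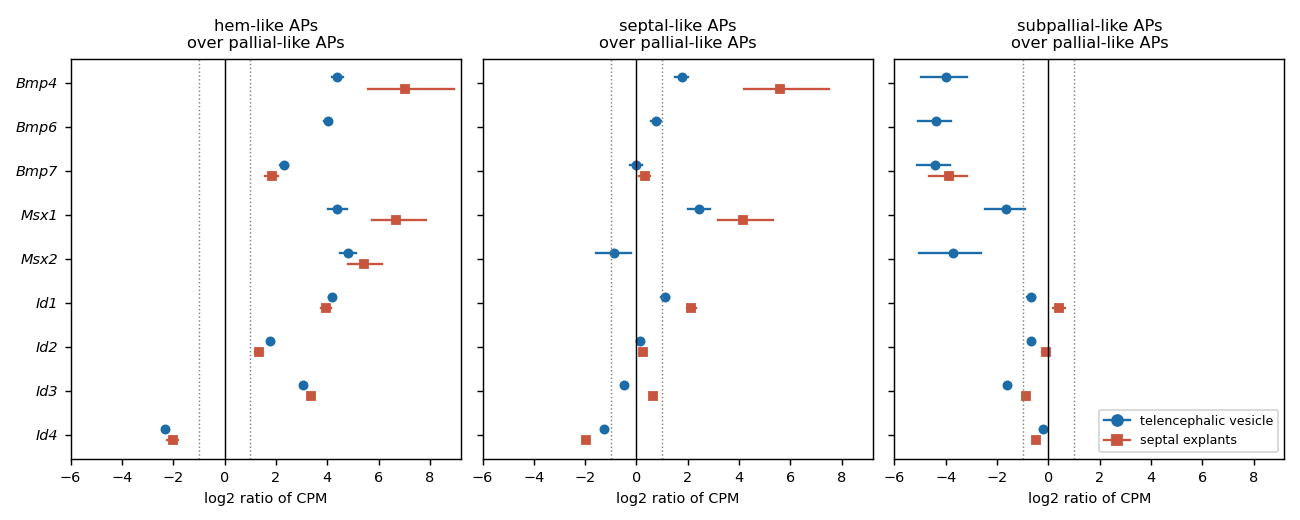
Log2 ratio of the CPM of hem-like, septal-like and subpallial-like APs over pallial-like APs for each member, with circles for the vesicle, squares for the explants, 95% counting intervals as bars and dotted lines at 2-fold. Members under the minimum of 50 UMIs are not drawn. In the hem panel Id4 alone lies below 0, and in the subpallial panel no member lies above the upper dotted line.

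The septum is the second midline structure of the telencephalon, and septal-like APs were set against pallial-like APs in the same way. In the vesicle, 3 of 9 genes were higher (8.15% of all genes taken up) and 1 was lower (2.93%). In the explants, 3 of 7 were higher (7.77%) and 1 was lower (2.74%). Both libraries gave the same 4 genes, Bmp4, Msx1 and Id1 as higher and Id4 as lower.

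Bmp4 stood at 22.6 against 6.65 CPM in the vesicle, 3.39-fold (2.84 to 4.07), and at 127 UMIs against 4 in the explants, 48.2-fold (18.4 to 180). Msx1 was 5.38-fold (4.03 to 7.25) and 17.9-fold (9.07 to 40.2) higher. Id1 was 2.16-fold (1.95 to 2.39) higher in the vesicle, at 56.7 against 26.3 CPM, and 4.39-fold (3.87 to 4.98) in the explants, at 104 against 23.8 CPM. Id4 was at 0.420 (0.404 to 0.437) and 0.259 (0.241 to 0.277) of its pallial-like level. In the vesicle the calls were not firm. With classes made from Leiden clusters, the log2 ratios were 0.80 for Bmp4, 0.58 for Msx1, 0.72 for Id1 and -0.61 for Id4, all under 2-fold, and Id1 was also under 2-fold with thinned cells (0.26), the looser gate (0.79) and the mean of single-cell CPM (0.96). In the explants each of the 4 stayed past 2-fold under every alternative. The septal-like signal of Bmp4 and Msx1 was again carried by a minority, with 31.8% and 36.8% of the UMIs in 10 vesicle cells and 33.9% and 45.3% in 10 explant cells.

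Other members that were taken up did not differ by 2-fold. Bmp6 was at 1.70 (1.48 to 1.95) in the vesicle. Bmp7 had a ratio of 0.991 (0.845 to 1.16) in the vesicle and 1.25 (1.08 to 1.44) in the explants. These intervals, for counting error alone, reach a difference of at most 1.44-fold. Over the alternatives the log2 ratio of Bmp7 ran from -0.64 to 0.37 in the vesicle and from 0.21 to 0.43 in the explants. Id2 stood at 94.3 against 86.1 CPM in the vesicle, an interval of 1.02 to 1.17 for the ratio. Id3 went opposite ways, at 0.714 (0.681 to 0.748) in the vesicle and 1.57 (1.48 to 1.66) in the explants. Msx2 had 23 UMIs in septal-like and 100 in pallial-like cells of the vesicle, a ratio of 0.551 (0.334 to 0.873), of which 82.6% of the septal-like UMIs sat in 10 cells, and 5 against 23 UMIs in the explants.

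Set directly against hem-like APs, the septal-like class was lower for 8 members in the vesicle (3.47% of genes) and higher for Id4 (5.51%), and lower for 7 of 8 in the explants (2.70%), where none was higher (3.96%). Msx2 was the most unequal, at 0.0198 (0.0125 to 0.0299) of the hem-like level in the vesicle and 0.00759 (0.00243 to 0.0181) in the explants. Msx1, the gene's paralog, was at 0.257 and 0.173. Bmp4 was at 0.161 and 0.371, and Bmp7 at 0.201 and 0.350. Both midline AP classes thus had Bmp4, Msx1 and Id1 above the pallial-like level in both libraries, while Msx2 was above it in the hem-like class only and did not differ by 2-fold, or had too few UMIs, in the septal-like class. Id4 was 2.08-fold (1.95 to 2.22) higher in septal-like than in hem-like cells of the vesicle, and 1.06-fold (0.907 to 1.23) in the explants.

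Choroid plexus-like cells, defined by markers such as Ttr (75.3% of the 89 vesicle cells) and Clic6 (91.0%), were set against hem-like APs. The marker Kl, also on the list, had 0 UMIs in these cells, and Enpp2 was detected in 2.25%. The vesicle cells had medians of 47 UMIs from the hem list and 12 from the choroid plexus list, against 52 and 1 in hem-like APs. In the explants these medians were 17 and 19, against 34 and 0. The vesicle classes thus had alike counts of hem markers and were parted by the choroid plexus markers. In the vesicle only Msx1 was higher (4.81% of genes) and only Id4 was lower (4.56%). Msx1 stood at 220 against 45.5 CPM, 4.82-fold (4.18 to 5.55), and Id4 at 44.7 against 107 CPM, 0.416 (0.316 to 0.537). Bmp4 was 1.67-fold (1.48 to 1.88) and Bmp7 1.60-fold (1.37 to 1.88) higher, short of 2-fold, Msx2 was at 0.552 (0.424 to 0.707) and Id3 at 0.592 (0.562 to 0.622). The 13 cells of the explants gave 3 genes higher (5.43%) and 4 lower (11.3%). Msx1 was 8.25-fold (6.31 to 10.8) higher and was detected in 13 of 13 cells, Bmp7 was 3.17-fold (2.34 to 4.24) and Bmp4 2.27-fold (1.21 to 3.97) higher. Msx1 and Msx2 therefore lay on opposite sides of the hem-like level in both libraries, though Msx2 rested on 3 UMIs in the explant cells, a ratio of 0.236 (0.0481 to 0.702).

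Subpallial-like APs, the sum of the LGE-like and MGE-like classes, had little of the BMP ligands or Msx genes. These names rest on markers and not on place, since the explants were dissected around the septum. MGE-like APs carried Nkx2-1 in 90.6% of vesicle and 89.2% of explant cells, but Nkx6-2 in 33.5% and 14.9% and Shh in 32.1% and 6.15%. Lhx6, also on the MGE list, was in 1.20% and 0% of them, less than in other cells (2.62% and 0.231%). Lhx8 was in 5.16% and 4.10%, against 5.32% and 1.81% of other cells, so neither gene defined the class. LGE-like APs carried Gsx2 in 67.3% and 83.3%. In subpallial-like APs of the vesicle (1739 cells), 0 of 9 genes were higher than in pallial-like APs (4.82%) and 6 were lower (3.45%). Bmp4 was at 0.414 against 6.65 CPM, Bmp6 at 0.759 against 16.0 and Bmp7 at 0.794 against 17.2. These are ratios of 0.0623, 0.0475 and 0.0461. Msx1 was at 0.317, Msx2 at 0.0767 from 7 UMIs, and Id3 at 0.327 of the pallial-like level. In the explants (567 cells), 5 genes were taken up, of which 0 were higher (3.06%) and 1 was lower (2.54%), Bmp7 at 0.0682 from 17 UMIs. Bmp4 had 1 UMI, Msx1 6, and Bmp6 and Msx2 had 0 in those cells, of which a count of 0 allows a level of up to 3 UMIs.

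Id1, Id2 and Id4 were within 2-fold of the pallial-like level in subpallial-like APs. Id4 was at 455 CPM in subpallial-like and 533 CPM in pallial-like APs of the vesicle (ratio 0.854), and at 279 and 394 CPM in the explants (0.708). Id1 was at 0.627 (0.559 to 0.703) in the vesicle and 1.33 (1.13 to 1.56) in the explants, on opposite sides of 1. Within the subpallial-like class, Id3 was higher in MGE-like than in LGE-like APs, at 108 against 54.5 CPM in the vesicle (1.99-fold, 1.82 to 2.16). In the explants it was at 150 against 64.3 CPM (2.33-fold, 2.02 to 2.69). Id2 leaned the other way, at 0.695 in the vesicle and 0.403 (0.332 to 0.486) in the explants. By the 2-fold count, 0 of 4 members were higher (0.915%) or lower (1.65%) in the vesicle, and in the explants 1 was higher (1.38%) and 1 was lower (1.35%).

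VP-like APs, named after the ventral pallium at the lateral edge of the pallium, also had low levels of the ligands. The class was loosely cut, since 288 of 546 vesicle and 74 of 123 explant cells also passed the stricter gate. Sfrp2 was detected in 81.5% of vesicle and 90.2% of explant VP-like cells, but Dbx1 in 23.6% and 38.2%. Those of the explants had a median of 3 UMIs from the VP list beside 4 from the pallial list. In the vesicle 6 of 9 genes were lower than in pallial-like APs (2.66%) and 0 were higher (2.97%). Bmp7 was at 0.0371, Bmp4 at 0.151, Bmp6 at 0.183 and Id3 at 0.426 of the pallial-like level, while Id4 was 1.22-fold higher. In the explants 2 of 5 were lower (2.52%) and 0 were higher (1.36%), Bmp7 being at 0.324 and Id3 at 0.353.

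Neurons were compared with the progenitors of their own territory. In pallial glutamatergic-like neurons of the vesicle (286 cells), 8 of 9 genes were lower than in pallial-like APs (22.4% of genes) and 0 were higher (13.3%). Bmp4, Bmp6 and Msx1 had 1 UMI each in these neurons, so that the ratio of Msx1, 0.199, had an interval of 0.00497 to 1.15 that spans no change, and its log2 ratio was -0.76 with thinned cells. Bmp7 had 5 UMIs and Msx2 had 0. The interval of the Msx2 ratio reaches 0.517, so a difference just under 2-fold is within it. Id3 was at 14.3 against 239 CPM, a ratio of 0.0598, and Id4 at 80.1 against 533 CPM, a ratio of 0.150. Id1 was at 0.446, but came under 2-fold in 4 of 11 alternatives (log2 ratios of -0.67 to -0.90). Id2 was the exception, at 138 against 86.1 CPM, 1.61-fold (1.43 to 1.80). In the explants (333 cells), Id2 was 3.00-fold higher (2.78 to 3.23), at 305 against 102 CPM, as were 15.7% of genes, and 3 of 5 members were lower (15.9%). These were Bmp7 at 0.359, Id3 at 0.0761 and Id4 at 0.0840. With cells of E11.5 embryos alone, the log2 ratio of Id2 was 0.95 against 1.59 with all cells, just under 2-fold.

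GABAergic-like neurons had less Id1, Id3 and Id4 than subpallial-like APs in both libraries, 3 of 4 members taken up in each (lower for 17.4% of genes in the vesicle and 14.3% in the explants). Id3 was at 0.291 and 0.150, Id4 at 0.382 and 0.267, and Id1 at 0.364 and 0.209. Id2 differed between the libraries. It was at 33.5 against 53.6 CPM in the vesicle (0.625, 0.535 to 0.728) and at 222 against 94.4 CPM in the explants (2.35-fold, 2.11 to 2.61), where 12.7% of genes were higher. In the vesicle 13.2% of genes were higher, and none of the members was. Msx1 had 17 UMIs in 11 GABAergic-like cells of the explants, 94.1% of them in 10 cells. Cajal-Retzius-like cells, early neurons of which many arise at the hem and septum, had 24.2 CPM of Id1 against 11.7 in glutamatergic-like neurons of the vesicle, the only 1 of 4 members that differed by 2-fold (higher for 4.98% of genes). In the explants only Id2 differed, at 0.309 (0.274 to 0.349) and lower (3.07%).

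BP-like cells lie between pallial APs and neurons. In the explants 2 of 5 members were higher than in pallial-like APs (4.68%) and 2 were lower (6.35%). Id2 was 4.24-fold (3.92 to 4.59) and Id1 2.55-fold higher, at 60.5 against 23.8 CPM, and Id3 and Id4 were at 0.411 and 0.361. In the vesicle 5 of 9 were higher (5.94%) and 0 were lower (4.43%), but 10 of the 388 cells held 87.0% of the Bmp4 UMIs, 100% of Msx1, 98.0% of Msx2, 52.3% of Id1 and 62.8% of Id3. Id2 was spread more widely, with 17.1% of its UMIs in 10 cells, and was 2.65-fold (2.47 to 2.83) higher, at 228 against 86.1 CPM.

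Along the pallial lineage, cells of the 3 classes were ordered by the ratio of neuronal to AP marker UMIs and divided into 10 bins of equal size. Cells between the AP and neuron limits of this ratio that were not BP-like were left out. That stretch of the order therefore held BP-like cells alone. In the vesicle Id4 ran from 608 CPM in the first bin to 414 in bin 7, 129 in bin 8 and 77.4 in the last. Id3 ran from 381 to 304, 44.8 and 10.5 CPM over the same bins. Both were thus much lower in bin 8 than in bin 7, while the share of BP-like cells went from 50% to 98.3%. Since the gate sets that share, a course along the order cannot be told apart from the change of class. Id2 had the opposite course there. It stood at 127 CPM in the first bin, 74.3 in bin 4, 286 in bin 8 and 123 in the last, so that its ends were alike. In the explants the peak of Id2 was at bin 7, at 453 CPM, where BP-like cells were 82.4%, against 91.7 in the first bin and 238 in the last. Id4 went there from 391 CPM in bin 6 to 201 in bin 7 and 42.4 in bin 8, and Id3 from 146 to 38.3 and 15.4 CPM. Id1 had a low maximum in bin 7 of both libraries, at 72.5 and 55.2 CPM. Few cells carried these sums, since 10 cells held 67.4% of the Id1 and 65.6% of the Id3 UMIs of vesicle bin 7, and 57.4% and 67.1% of those of explant bin 7. The corresponding shares for Id2 were 31.8% and 24.9%. Bmp7 was 18.1 CPM in bin 7 and 4.78 in bin 8 of the vesicle, and 35.7 in bin 6 and 15.9 in bin 7 of the explants. BP-like cells were chosen by Eomes and other markers and not by any member. The choice used no regional marker, so BP-like cells from outside the pallial-like class may be among them.

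**Figure D4:**
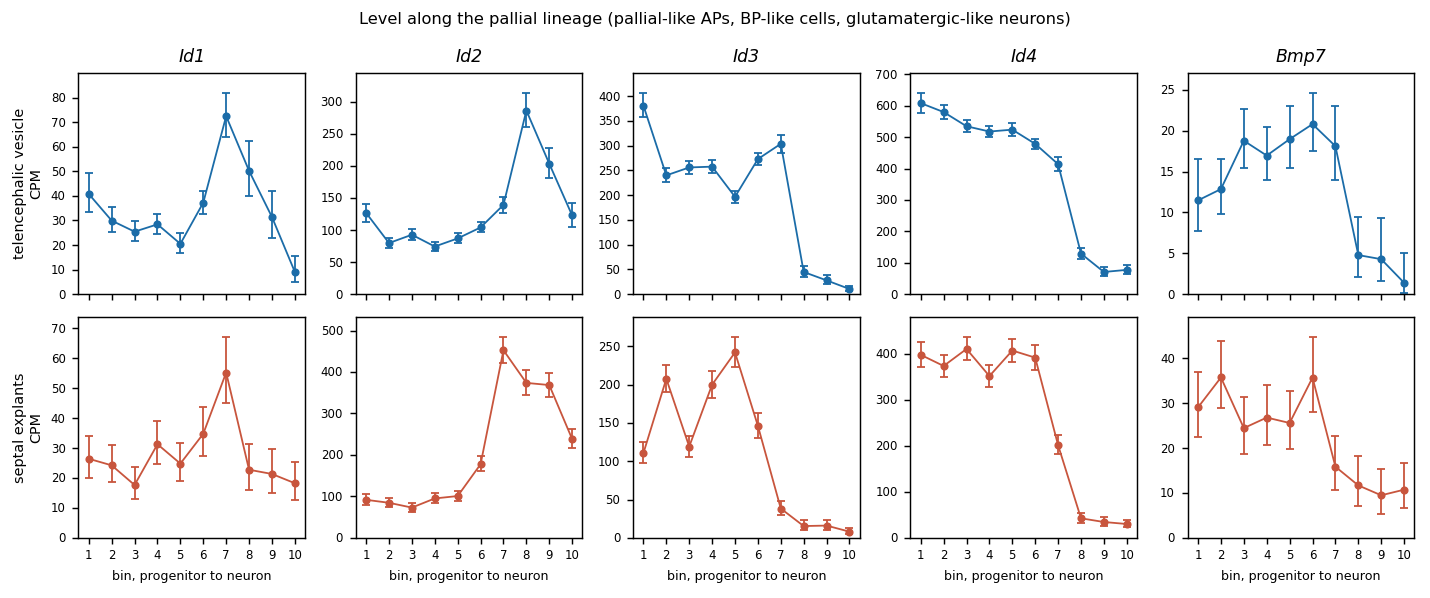
Level (CPM) of Id1, Id2, Id3, Id4 and Bmp7 over 10 bins of pallial-like APs, BP-like cells and glutamatergic-like neurons. Cells are ordered from apical progenitors (bin 1) to neurons (bin 10), with a row of panels for each library and 95% counting intervals as bars. Id2 peaks at 286 CPM in bin 8 of the vesicle and 453 CPM in bin 7 of the explants, where Id3 and Id4 are lower than in the bin before.

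Mesenchyme-like cells, outside the neural tube, were compared with all neural cells of the vesicle (506 against 10175). Of the 9 members 3 were higher (11.1%) and 2 were lower (16.3%). Msx1 was 39.7-fold (36.7 to 43.0), Msx2 4.08-fold and Bmp4 3.13-fold higher. Bmp6 was at 0.122 and Id4 at 0.0870. Id1, Id2 and Id3 differed little, with ratios of 1.08, 1.17 and 1.18.

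Whether the genes went together in single cells was read from the thinned cells. Some did and some did not. Among vesicle hem-like cells, Id1 was detected in 82.5% of the 251 cells with a Bmp4 UMI and in 60.3% of the 353 without. In the explants this was 87.5% of 24 against 65.3% of 101. Msx1 was in 19.9% against 11.1% in the vesicle, and in 41.7% against 17.8% in the explants, where the intervals of both genes overlapped. Other members differed little with Bmp4 in the vesicle, with overlapping intervals, Bmp7 being in 21.9% against 20.7%, Msx2 in 21.5% against 19.8% and Id2 in 57.0% against 53.5%. Id3 was nearly everywhere, in 98.0% against 91.2%. Id4 was in 20.3% of vesicle cells with Bmp4 (interval 15.5 to 25.8) and 27.2% of those without (22.6 to 32.2), and in 3 of 24 against 38.6% in the explants, and the intervals overlapped in both libraries. Among explant hem-like cells, Id4 was in 7.14% of the 28 with Msx1 and 41.2% of the 97 without. Among septal-like cells Msx1 was in 17.2% of 58 cells with Bmp4 and 2.76% of 615 without in the vesicle, and in 22.5% of 40 and 4.80% of 562 in the explants. Msx2 was in 0 of the 58 and 0 of the 40, which an exact binomial interval bounds at 6.16% and 8.81%. Cells of a library share their embryos and dissection, so these shares describe the libraries.

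In the explants, cells with at least 3 YFP UMIs came from E11.5 embryos. Cells without a YFP UMI mix E12.5 cells with E11.5 cells in which the reporter was missed. Among pallial-like APs, Id3 was at 217 CPM in the 431 YFP cells and 103 CPM in the 264 without, 2.11-fold (1.90 to 2.34), and Id4 was at 0.829. Among septal-like APs (402 and 214), Bmp4 was 1.94-fold (1.20 to 3.28) and Msx1 1.65-fold (1.02 to 2.77) higher in YFP cells. Among hem-like APs (101 and 24), Msx1 was 4.59-fold (1.91 to 14.4) higher from 124 against 5 UMIs, Msx2 2.88-fold (1.47 to 6.42), and Id3 1.50-fold (1.35 to 1.68), while Id4 was at 0.618 (0.444 to 0.875). As given above, few cells held most of the Msx1 UMIs of explant hem-like APs. Id3 was uneven in pallial-like APs too. In explant bins 1 and 2 of the pallial lineage, of 132 cells each and with 0% BP-like cells, 10 cells held 60.7% and 59.1% of its UMIs. The counting intervals do not cover such spread between cells. The groups also differ in genotype, and genotype and age cannot be told apart.

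**Figure D5:**
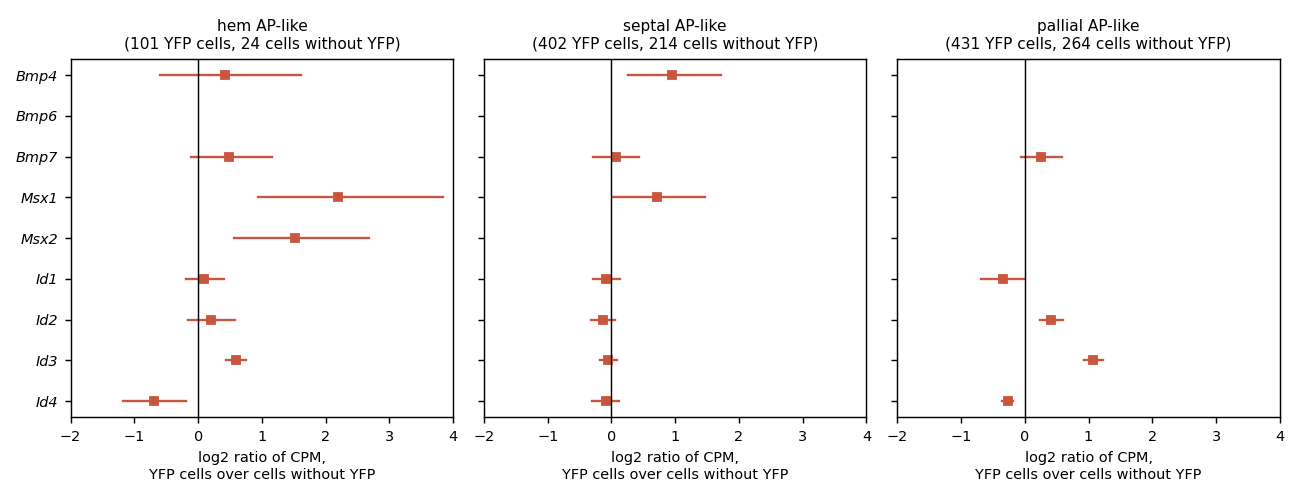
Log2 ratio of the CPM in YFP cells (E11.5) over cells without YFP for each member in hem-like, septal-like and pallial-like APs of the explants, with 95% counting intervals as bars and the number of cells of each kind. Msx1 and Msx2 in hem-like cells and Id3 in pallial-like cells lie above 0 with intervals clear of it. The intervals do not cover spread between cells, and few cells held much of the Msx1 and Id3 counts.

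The other genes of the pathway were taken from a list of 49 ligands, receptors, Smads, antagonists, feedback inhibitors and HLH partners. In hem-like against pallial-like APs of the vesicle, 37 were taken up, of which 12 were higher and 2 were lower, beside 6.61% and 3.82% of all genes. Of the 6 other ligands taken up 3 were higher, Bmp5 at 9.75-fold, Gdf5 at 8.37-fold and Bmp2 at 4.40-fold. None of the 6 receptors was higher, and Bmpr1b was lower, at 67.3 against 195 CPM (ratio 0.346). Of 5 Smads the inhibitory Smad6 and Smad7 were higher (2.49-fold and 2.12-fold), while Smad1, Smad4 and Smad5 did not pass 2-fold. Among 9 secreted antagonists 4 were higher, among them Sostdc1 (8.31-fold), Nbl1 (7.41-fold) and Nog (2.48-fold), and Fst was at 0.164. Bambi, a pseudoreceptor that dampens BMP signalling, was 7.89-fold higher, at 44.5 against 5.64 CPM. None of the E proteins Tcf3, Tcf4 and Tcf12 passed 2-fold. In the explants 9 of 32 were higher (4.95% of all genes) and 0 lower (2.10%), Bambi (3.63-fold), Smad6 (2.87-fold) and Smad7 (2.50-fold) among them. The others were Gdf5, Gdf11, Fstl1, Sostdc1, Nbl1 and Skil.

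In septal-like against pallial-like APs, 5 of 36 pathway genes were higher and 3 lower in the vesicle, where 8.15% and 2.93% of all genes were. In the explants 7 of 34 were higher and 3 lower, beside 7.77% and 2.74% of all genes. Sostdc1 was higher in both, 13.2-fold and 45.1-fold (72.8 against 1.61 CPM), and Grem1, a secreted BMP antagonist, had 100 UMIs against 2 in the vesicle (ratio 120, interval 32.3 to 1002). Smad6 was lower in both, at 0.381 and 0.304, whereas it was higher in the hem-like class. In subpallial-like against pallial-like APs, 3 of 35 were higher and 5 lower in the vesicle, where 4.82% and 3.45% of all genes were. In the explants 2 of 32 were higher and 3 lower, beside 3.06% and 2.54% of all genes. The antagonists Fst (2.96-fold and 2.34-fold) and, in the vesicle, Nog (2.87-fold) and Bmper (3.16-fold) were higher. Sostdc1 was lower in the vesicle and higher in the explants, and Nbl1 was lower in the explants. Smad6 was at 0.214 and 0.257. The E protein Tcf4 was among the genes lower in both septal-like and subpallial-like APs of the explants, but not in those of the vesicle. In glutamatergic-like neurons 2 were higher and 13 lower of 35 in the vesicle, with the receptors Bmpr1b at 0.0557 and Bmpr1a at 0.414 of the AP level, and 2 and 9 of 31 in the explants. Over all genes 13.3% were higher and 22.4% lower in the vesicle neurons, and 15.7% and 15.9% in those of the explants.

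The genes whose levels ran most alike to each member over the 19 vesicle classes of at least 50 cells were found by Pearson's r of the log levels, among 11866 genes. Wnt9a came first for Bmp4 (r = 0.93) and for Id1 (0.96), Wls, which carries Wnt ligands to the membrane, for Msx2 (0.91), and Bmp5 for Bmp7 (0.96). Bmp6 ran most like Large2 (0.95), Msx1 like Bambi (0.93), Id2 like Nxn (0.96), Id3 like Itpr1 (0.95) and Id4 like Ptprz1 (0.94). Among the members themselves r was 0.929 for Bmp4 and Msx2 and 0.920 for Bmp4 and Id1, and between -0.366 and 0.103 for Id4 with the others. In the explants, over 14 classes and 8924 genes, Bmp7 ran most like Cd63 (0.92), Id3 like Tpbg (0.98) and Id4 like Lrrc1 (0.96). These first-ranked genes were not the ones of the vesicle for any of the 6 members ranked in both. Only the first rank was compared, among 11866 and 8924 genes over 19 and 14 classes. How often genes other than the members share a first-ranked gene was not tested. Whether the first-ranked genes of the vesicle were among the 8924 is not given. The lack of overlap therefore says nothing particular to the members. Classes of 1 library share its embryos and depth, and the values are a description.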

How the data were processed

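The 2 libraries were made with 3' droplet kits from 10x Genomics, v3.1 for the telencephalic vesicles and v2 for the septal explants. The authors deposited unnormalized UMI counts per gene and barcode, made with Cell Ranger 7.1.0 and Cell Ranger 2.1.1, and the submitters' processing notes name mm10 for both; per the study's methods, the YFP and tdTomato sequences were added for the explants. The treatment of intronic reads is not given in the sources used here. The vesicle table holds 14283 barcodes and 194821794 UMIs, and that of the explants holds 5827 barcodes and 83103280 UMIs.

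Barcodes with a mitochondrial share more than 3 median absolute deviations from the median were dropped, leaving 12471 and 5444. Doublets were called with Scrublet as implemented in scanpy 1.11.5 (rate 0.8% per 1000 barcodes), which marked 713 and 60. Classes came from marker scores (at least 0.3, and 0.15 above the next class), cells with haemoglobin above the set limits being kept apart. Counts were summed by class. A gene needed 50 UMIs in the classes compared, and 2-fold differences were counted. The minimum is on the sum of both classes, so a gene, member or not, can pass through the class where it is high alone. Intervals are exact (Poisson, conditional binomial for ratios, Clopper-Pearson for shares). With 1 pool per library no significance test was run. UMIs are molecules, yet intervals and floors of 3 UMIs cover counting error only. Cells were also thinned to 3500 and 8000 UMIs, leaving out 1145 and 511 shallower ones. The members, marker lists and pathway list were chosen with earlier results of these data known. The genes named were the 9 members, some of the pathway genes past 2-fold and, for each member, those most alike over classes. Pathway genes past 2-fold were all counted but not all named. The comparisons of choroid plexus-like and septal-like with hem-like cells, VP-like and BP-like cells with pallial-like APs, MGE-like with LGE-like APs, and Cajal-Retzius-like cells with glutamatergic-like neurons were added after the data were seen. On Poisson counts simulated with 200 changed genes a comparison, at least 98% of 4-fold changes were recovered, and intervals held the true fold in 95.2% to 95.8% of genes. Those counts had no added spread between cells or embryos. Coverage near 95% thus followed from the setting and says nothing about such spread in the real cells. The alternatives were a stricter and a looser gate, moved boundaries, Leiden clusters, no cell filter, doublets kept, thinned cells, means over cells, other scalings, no minimum of UMIs and E11.5 cells alone. Sums and intervals were computed with scipy 1.17.1, pandas 2.3.3 and numpy 2.4.6 in Python 3.11.15, and plots drawn with matplotlib 3.10.9.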

Additional observations from a re-analysis of the deposited data

Results flagged for a closer look

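Members whose ratio was above 1 in one library and below 1 in the other, with both counting intervals clear of 1, were singled out over all the comparisons, and in each case the difference was not tested, since each library is a single pool. The log2 ratio of Id2 in GABAergic-like neurons over subpallial-like APs was -0.68 in the vesicle and 1.23 in the explants. That of Id3 in septal-like over pallial-like APs was -0.49 and 0.65, and 0.23 in the explants with cells of E11.5 embryos alone. That of Id1 in subpallial-like over pallial-like APs was -0.67 and 0.41. These 3 kept their signs under all alternatives run, over which the vesicle value of Id1 ran from -1.93 to -0.24. In the comparisons added later, which were not run under the alternatives, Id3 in BP-like cells over pallial-like APs was at 0.36 in the vesicle, where 10 cells held 62.8% of its UMIs, and -1.28 in the explants. Smaller differences were found in VP-like over pallial-like APs for Id2 (0.22 and -0.33) and Id4 (0.28 and -0.17), and in MGE-like over LGE-like APs for Id4 (0.058 and -0.33). The libraries differ in dissection, age, kit and processing, which cannot be told apart.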

How the results depend on the processing

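Of the 9 members, all 9 differed by 2-fold between hem-like and pallial-like APs of the vesicle under each of 11 alternatives. In the explants 8 did, 7 with thinned cells and 9 with no minimum of UMIs. Counts that moved by more than 1.5 times were as follows. Thinning took the vesicle count from 4 to 2 for septal-like APs and from 8 to 4 for glutamatergic-like neurons, and Leiden clusters took the former to 1. With no minimum of UMIs, GABAergic-like neurons gave 6 for 3 in the vesicle and 7 for 4 in the explants, and subpallial-like APs of the explants gave 4 for 1. The last count was 2 with the stricter gate, with the looser gate and with E11.5 cells alone. Thinning and the age split leave fewer UMIs, and dropping the minimum takes up members with few UMIs. In GABAergic-like neurons against subpallial-like APs of the explants, the members so added were Bmp4 (1 against 1 UMI), Bmp7 (1 against 17) and Msx1 (17 against 6). The cause of the other changes was not tested. The share of all genes past 2-fold is not given for the alternatives, so these counts have no background to be set against. No ratio past 2-fold changed sign. Of the single ratios, 40 of 77 moved by more than their interval with Leiden clusters, 37 of 73 with thinning, and 1 of 77 with CPM that left out mitochondrial, ribosomal protein and haemoglobin genes. No paired analysis was possible because each condition is 1 library. Depth limits Msx2 and Bmp4 outside the midline classes, where sums were often under 10 UMIs, and the 13 choroid plexus-like cells of the explants.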
